A study of Homo sapiens with 24 samples.

Results

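The genes described here are 9 known targets of the transcription factor p53, measured in 2 immortalised pancreas lines: MDM2, TP53INP1, SESN1, FAS, BAX, ZMAT3, RRM2B, FDXR and TP53I3. They were found by gene symbol, and all 9 were present among the 48162 genes of every library. RNA-seq was done on 24 libraries, 3 for each of 8 groups. The first recipient line, hTERT-HPNE, is called HPNE below and carries a telomerase gene that keeps it dividing. The other, HPDE-H6c7 or HPDE, is a duct epithelium line immortalised by papillomavirus genes that include E6. Each is 1 established line, labelled as normal pancreas, grown in keratinocyte serum-free medium in 24-well plates. Each line was kept for 24 h under 1 of 4 conditions. One control was fresh serum-free medium, called untreated here. The labelled negative control was medium left behind by the vesicle isolation, called residual medium here. The other wells received 1e10 extracellular vesicles (EV) each, released either by the carcinoma line PANC-1 or by PPCL-68 cells. The labels name no further genetic or drug treatment in any group.

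p53 is a DNA-binding protein that is kept scarce in unstressed cells, mainly because MDM2 marks it for degradation. DNA damage and other stresses stabilise it, and it then raises genes for growth arrest, cell death, repair and metabolism, MDM2 among them, which closes a negative feedback loop. The papillomavirus protein E6 directs p53 to degradation. By role, MDM2 is the feedback gene, TP53INP1 and SESN1 act in stress and growth control, FAS and BAX in cell death, ZMAT3 on RNA, and RRM2B, FDXR and TP53I3 in nucleotide, mitochondrial and redox metabolism. p53 binds DNA as a pair of adjoining half-sites, each 10 bases long.

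Half-sites were looked for in windows from 250 bases before to 50 bases after the annotated start sites of RefSeq (GRCh38.p14), because they are the sequence through which p53 can act on these genes. The half-site reads the same on both strands, so 1 search covered both. A perfect half-site was present in 6.63% of the 35116 windows of all genes. Windows were found for 7 of the genes, 16 in all, and 3 of those, 1 each in SESN1, FAS and FDXR, held a perfect half-site. In no window of these genes did 2 perfect half-sites lie within 13 bases of each other, as was also the case for all but 0.0285% of all windows. With up to 2 mismatches over both half-sites together, 4 windows of these genes held such a pair, 2 overlapping ones of MDM2 and 1 each of FAS and FDXR, as did 2.93% of all windows. The mismatches spared the central C and G of each half-site. This looser search was chosen after the first had been seen. TP53INP1 and RRM2B had no window. A match describes letters and does not show binding. The stretches are written 5′ to 3′ on the strand of the gene, with the matched letters in capitals. They are shown for MDM2, SESN1, FAS and FDXR because these had a match, whatever their responses. A link between a match and a response was not tested.
MDM2, chr12:68808767-68809001, plus strand, pair with 2 mismatches and no spacer starting at position -94 from the start site: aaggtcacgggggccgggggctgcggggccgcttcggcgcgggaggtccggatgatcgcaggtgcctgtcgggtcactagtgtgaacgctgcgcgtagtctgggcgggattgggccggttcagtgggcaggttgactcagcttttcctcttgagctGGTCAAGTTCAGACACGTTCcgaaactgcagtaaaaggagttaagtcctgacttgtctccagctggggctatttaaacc
SESN1, chr6:109008989-109009238, minus strand, half-site starting at position -49: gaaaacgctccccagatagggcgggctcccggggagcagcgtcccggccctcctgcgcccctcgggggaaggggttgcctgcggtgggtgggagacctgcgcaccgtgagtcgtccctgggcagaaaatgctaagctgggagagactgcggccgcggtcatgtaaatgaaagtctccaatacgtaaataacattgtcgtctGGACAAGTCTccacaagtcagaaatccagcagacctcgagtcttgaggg
FAS, chr10:88991304-88991333, plus strand, pair with 2 mismatches and no spacer starting at position -122, its first half-site perfect, with 5 bases on either side: ctcctGGACAAGCCCTGACAAGCCAagcca
FDXR, chr17:74872996-74873025, minus strand, pair with 2 mismatches and a spacer of 10 bases starting at position -31, its second half-site perfect: GGGCGGGCCCgggcaggagcGGGCTTGCCC

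The libraries held 29209142 to 46490312 reads in genes. The 9 genes had 226 to 10010 reads each in the HPNE libraries and 165 to 4296 in the HPDE libraries, so none was close to its detection limit. In HPNE, 1 library of each group lay 2.03 to 3.20 times as far from the other 2 as those lay from each other, against 1.08 to 1.25 times in HPDE. The libraries that lay apart were untreated 3, residual medium 3, PANC-1 EV 1 and PPCL-68 EV 1. The 5 duct epithelium markers (EPCAM, CDH1, KRT19, KRT8, KRT18) summed to 4.13 to 11.9 FPKM in HPNE and 824 to 2337 FPKM in HPDE. The 5 mesenchyme markers summed to 8520 to 12541 FPKM in HPNE and 78.8 to 152 FPKM in HPDE. Defining duct epithelium genes were thus nearly absent from HPNE. Markers of leukocytes, endothelium and acinar or islet cells summed to at most 2.08 FPKM in any library. No label says that the 3 libraries of a group came from separate cultures, so p-values measure only the spread between these libraries. In such bulk samples fewer cells with a transcript and less of it per cell cannot be told apart.

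In the hg19 coordinates of the deposited tables, MDM2 lies at chr12:69201956-69239214 (plus strand), SESN1 at chr6:109307640-109416022 (minus) and FAS at chr10:90750414-90775542 (plus). BAX lies at chr19:49458072-49465055 (plus), ZMAT3 at chr3:178735011-178790067 (minus) and FDXR at chr17:72858619-72869156 (minus). TP53I3 lies at chr2:24300303-24308731 (minus), TP53INP1 at chr8:95938200-95961639 (minus) and RRM2B at chr8:103216730-103251346 (minus). All are annotated as protein coding. The library kit kept no strand, and the loci of MDM2, TP53INP1, FAS and TP53I3 overlap other genes (CPM, NDUFAF6, ACTA2 and FAM228B among them), so reads in the shared parts cannot be told apart. SESN1, BAX, ZMAT3, RRM2B and FDXR overlap no other gene of those tables.

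**Figure D1:**
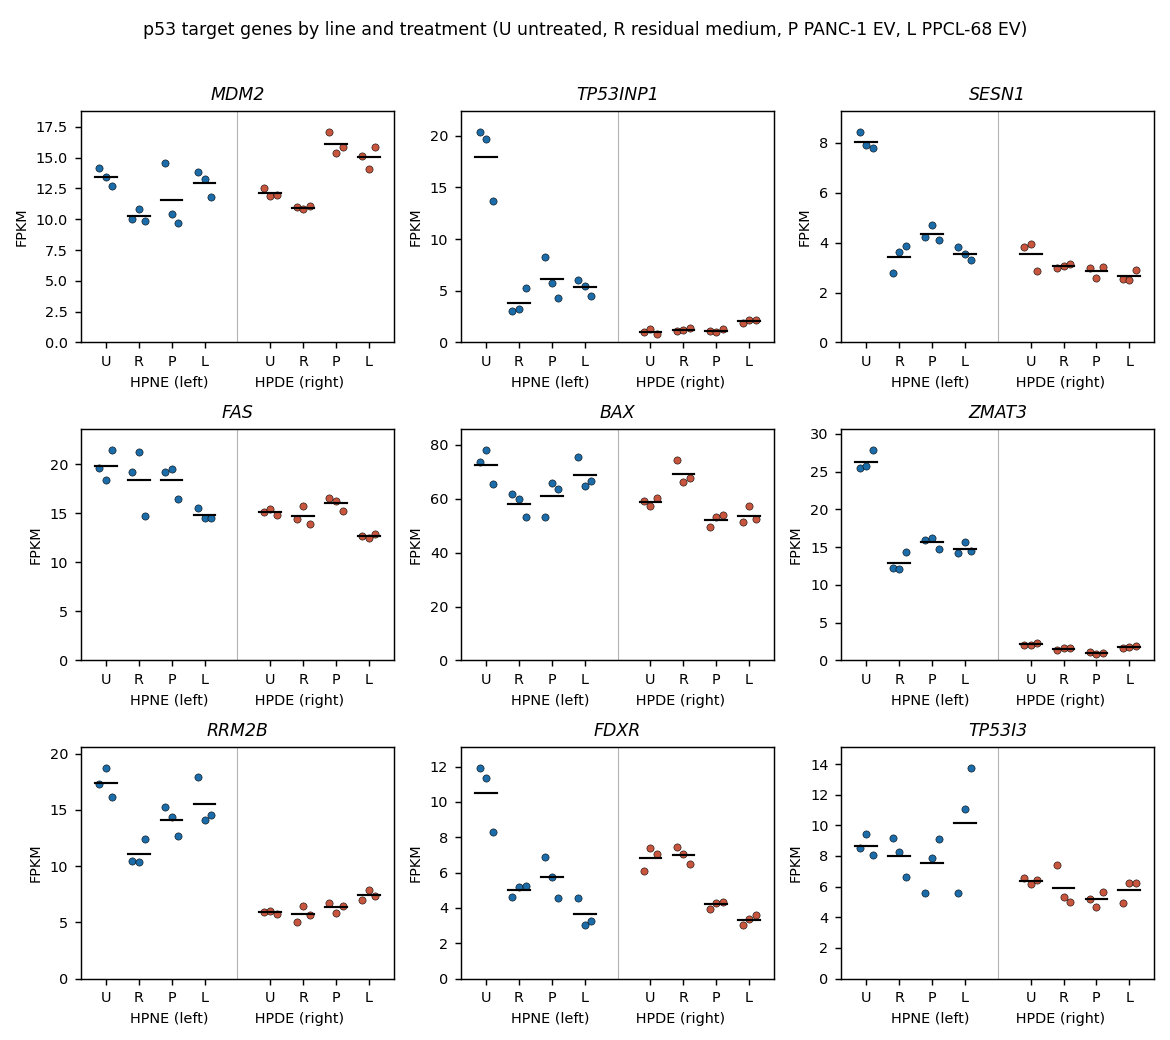
FPKM (vertical axis, from 0) of the 9 p53 target genes in each library, with HPNE in blue on the left and HPDE in red on the right of each panel. Points are libraries in replicate order and bars are means of 3; TP53INP1, SESN1, ZMAT3 and FDXR stand highest in untreated HPNE, and all HPDE values of TP53INP1 and ZMAT3 are at most 2.28 FPKM.

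The baseline of the lines was compared first. FPKM is scaled to gene length, so its levels can be set side by side between genes. Untreated HPDE had less RNA of 7 of the 9 genes than untreated HPNE and more of none, while 83.8% of the 12377 genes tested differed and 66.9% of those were higher in HPDE. The median log2 difference, HPDE minus HPNE, was -0.54 for the 9 genes and 0.38 for all genes (limma on log2(FPKM + 1), the scale of every log2 difference given here).

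TP53INP1, a stress protein that promotes p53 activity and autophagy, had 20.4, 19.7 and 13.7 FPKM in the untreated HPNE libraries and 0.970, 1.26 and 0.861 FPKM in the untreated HPDE libraries. The groups did not overlap, with means that differed 17.4-fold (log2 difference -3.21 ± 0.18 SE, limma adjusted p = 1.16e-12). ZMAT3, a zinc-finger RNA-binding protein, had 25.4, 25.7 and 27.8 FPKM in HPNE and 2.08, 2.03 and 2.28 FPKM in HPDE. Its means differed 12.4-fold (log2 difference -3.13 ± 0.07, limma adjusted p = 1.33e-19), again with no overlap. RRM2B, a p53-inducible subunit of the enzyme that makes deoxynucleotides, had 17.3, 18.7 and 16.1 FPKM against 5.90, 6.05 and 5.70 FPKM, a 2.95-fold difference of means (log2 difference -1.41 ± 0.10, limma adjusted p = 2.59e-11). For TP53INP1, ZMAT3 and RRM2B the lowest of the 12 HPNE libraries, under any condition, was above the highest of the 12 HPDE libraries. How many of all genes separate in this way, or between the untreated groups, was not computed.

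SESN1, a sestrin that restrains growth signalling through mTORC1, had 8.44, 7.90 and 7.78 FPKM in untreated HPNE and 3.84, 3.94 and 2.86 FPKM in untreated HPDE, with no overlap (log2 difference -0.999 ± 0.10, limma adjusted p = 5.75e-09). Smaller differences that passed the test, also without overlap between the untreated groups, were those of FDXR, a mitochondrial reductase that passes electrons to ferredoxin (-0.54 ± 0.13), FAS, a death receptor (-0.37 ± 0.09), and BAX, which opens the mitochondrial outer membrane in apoptosis (-0.29 ± 0.09), with limma adjusted p of 0.00085, 0.00134 and 0.00394. MDM2 had 14.2, 13.4 and 12.7 FPKM in untreated HPNE and 12.5, 11.9 and 11.9 FPKM in untreated HPDE, a difference that did not pass the test (-0.14, 95% interval -0.34 to 0.07, limma adjusted p = 0.193). TP53I3, a quinone oxidoreductase, did not pass it either (-0.39, 95% interval -0.83 to 0.05, limma adjusted p = 0.0953). Its untreated libraries had 8.53, 9.40 and 8.09 FPKM in HPNE and 6.59, 6.17 and 6.41 FPKM in HPDE. The untreated groups thus did not overlap for MDM2 and TP53I3 either. Division by size factors in place of library totals moved the median of all genes by -0.31, to 0.07, and the split of calls to 53.2% higher. All 9 genes were then lower in HPDE, MDM2 by -0.48 and TP53I3 by -0.71 (limma adjusted p = 4.65e-05 and 0.00718).

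Other genes of the pathway were compared in the same way, and the list counts stand beside 83.8% of all genes called. CDKN1A, which encodes the cyclin-dependent kinase inhibitor p21, had 308, 303 and 253 FPKM against 51.1, 51.3 and 53.6 FPKM (log2 difference -2.44 ± 0.07, limma adjusted p = 3.19e-17). TP63, a p53 relative made in basal epithelium, had at most 0.0603 FPKM in any HPNE library and 58.5 to 145 FPKM in HPDE. MDM4, a partner of MDM2, was higher in HPDE (0.53), and so were CDKN2A (3.97) and TP63 (6.19), while PPM1D (-0.88) and ATM (-0.33) were lower. Of the arrest targets 4 of 7 were higher, SFN most (9.23), and 2 lower, CDKN1A most. Of the death targets 5 of 10 were higher, PMAIP1 (2.71) and PERP (2.54) most, and 3 lower, EDA2R (-3.39) and BBC3 (-1.85) most. Of the repair, metabolism and other targets 1 of 10 was higher and 7 lower, GDF15 (-3.72) and RPS27L (-2.16) most. All 10 cell-cycle genes were higher in HPDE, with a median log2 difference of 2.77. Under size factors PLK3, TNFRSF10B and TIGAR, all higher above, no longer passed the test, and TRIAP1, POLH and CMBL passed it as lower. The lines differ in origin, culture history and immortalising genes at once, which cannot be told apart here.

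**Figure D2:**
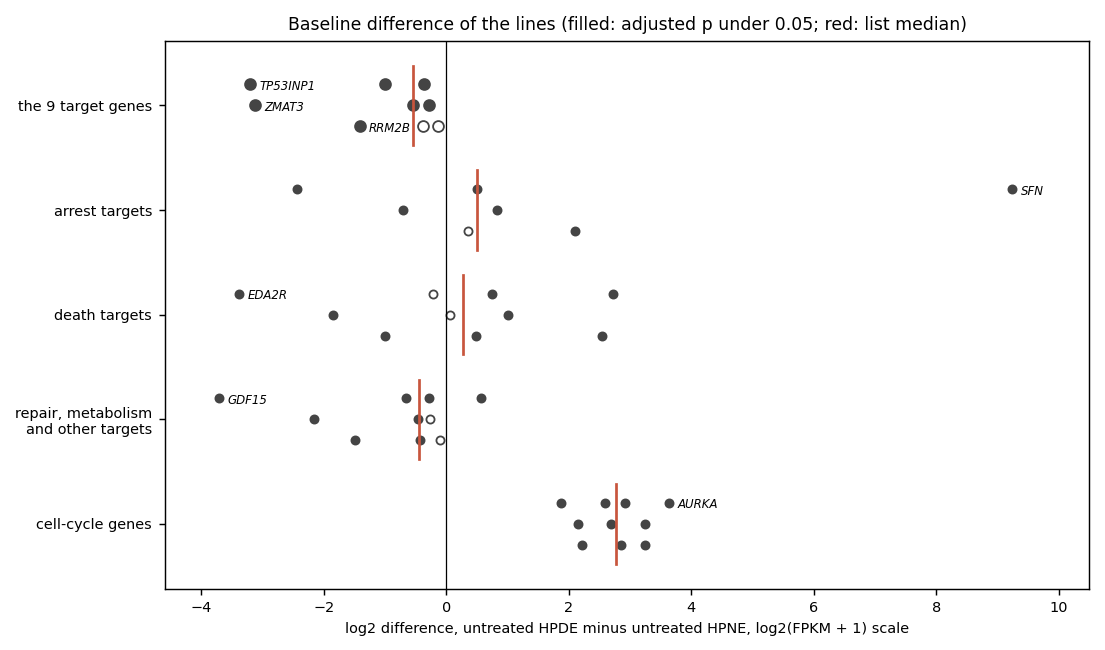
Log2 difference of untreated HPDE minus untreated HPNE (horizontal axis) for the 9 genes and for 4 lists of other genes, 1 point a gene, filled where the limma adjusted p is under 0.05 and open where it is not. Red bars are list medians; the 9 genes lie at or below 0 with a median of -0.54, and the cell-cycle genes all lie above 0.

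Residual medium was then compared with fresh medium in each line. In HPNE, 7 of the 9 genes fell and none rose, beside 43.9% of the 11503 genes tested, of which 42.6% were higher. The median log2 difference of the 9 genes was -0.61, and that of all genes -0.05. TP53INP1 fell most, from 20.4, 19.7 and 13.7 FPKM in untreated cells to 3.02, 3.24 and 5.30 FPKM in residual medium. The groups did not overlap (log2 difference -1.97 ± 0.23, limma adjusted p = 0.000164), and in both groups replicate 3 stood closer to the other group than its fellows.

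SESN1 fell from 8.44, 7.90 and 7.78 to 2.79, 3.61 and 3.88 FPKM (-1.04 ± 0.10, limma adjusted p = 6.25e-05). ZMAT3 fell from 25.4, 25.7 and 27.8 to 12.2, 12.2 and 14.4 FPKM (-0.98 ± 0.08, limma adjusted p = 3.00e-05). FDXR fell from 11.9, 11.4 and 8.30 to 4.61, 5.16 and 5.25 FPKM (-0.93 ± 0.17, limma adjusted p = 0.00181). For each of these genes the 3 residual-medium libraries lay below every untreated library. How many of all genes separate between groups was not computed, for this comparison or those below. RRM2B, from 17.3, 18.7 and 16.1 to 10.47, 10.4 and 12.4 FPKM, showed the same separation with a smaller difference (-0.61 ± 0.11, limma adjusted p = 0.00199).

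MDM2 fell from 14.2, 13.4 and 12.7 to 10.02, 10.8 and 9.89 FPKM (-0.36 ± 0.13, limma adjusted p = 0.0379). BAX fell from 73.8, 78.1 and 65.5 to 61.8, 59.7 and 53.1 FPKM (-0.31 ± 0.11, limma adjusted p = 0.0372). The groups were separate for both genes. Both calls were lost without untreated replicate 1 or 2 or without any 1 of the 3 residual-medium libraries, MDM2 also without PPCL-68 EV replicate 2, and both under size factors (limma adjusted p = 0.101 and 0.155). That scaling moved the median of all genes by 0.11, and the share of higher genes among those called from 42.6% to 61.5%. TP53INP1, SESN1, ZMAT3, RRM2B and FDXR passed the test under size factors too, with log2 differences of -1.86, -0.93, -0.85, -0.49 and -0.81. FAS had 19.6, 18.4 and 21.4 FPKM in untreated cells and 19.2, 21.2 and 14.7 FPKM in residual medium, which overlapped. TP53I3 also overlapped, with a log2 difference of -0.11 (95% interval -0.67 to 0.45).

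In HPDE, residual medium changed 2 of the 9 genes, 1 in each direction, beside 20.0% of the 12223 genes tested. BAX rose from 59.0, 57.2 and 60.5 FPKM to 74.3, 66.1 and 67.5 FPKM (0.23 ± 0.05, limma adjusted p = 0.00947). ZMAT3 fell from 2.08, 2.03 and 2.28 FPKM to 1.44, 1.61 and 1.69 FPKM (-0.28 ± 0.08, limma adjusted p = 0.0218). Neither pair of groups overlapped; the ZMAT3 call was lost without untreated replicate 1 or 3 or residual-medium replicate 1 (limma adjusted p = 0.0534, 0.0848 and 0.0821). The other 7 genes did not pass the test, with log2 differences of -0.14 for MDM2, 0.12 for TP53INP1, -0.15 for SESN1, -0.04 for FAS, -0.04 for RRM2B, 0.03 for FDXR and -0.11 for TP53I3.

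The difference between the lines was tested directly. The effect of residual medium differed between HPDE and HPNE for 6 of the 9 genes, beside 38.1% of the genes tested. For each of the 6 the difference in HPDE was above that in HPNE. TP53INP1 differed most, by 2.10 ± 0.26 (limma adjusted p = 7.81e-06). FDXR followed at 0.95 ± 0.19, SESN1 at 0.88 ± 0.14 and ZMAT3 at 0.70 ± 0.10. RRM2B and BAX differed by 0.56 ± 0.14 and 0.54 ± 0.12, and BAX was the gene that passed the test in opposite directions in the 2 lines. The HPNE call of BAX was lost under size factors and without any 1 of 5 libraries, as given above. The differences that did not pass were 0.23 for MDM2 (95% interval -0.06 to 0.51), 0.07 for FAS and under 0.01 for TP53I3.

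**Figure D3:**
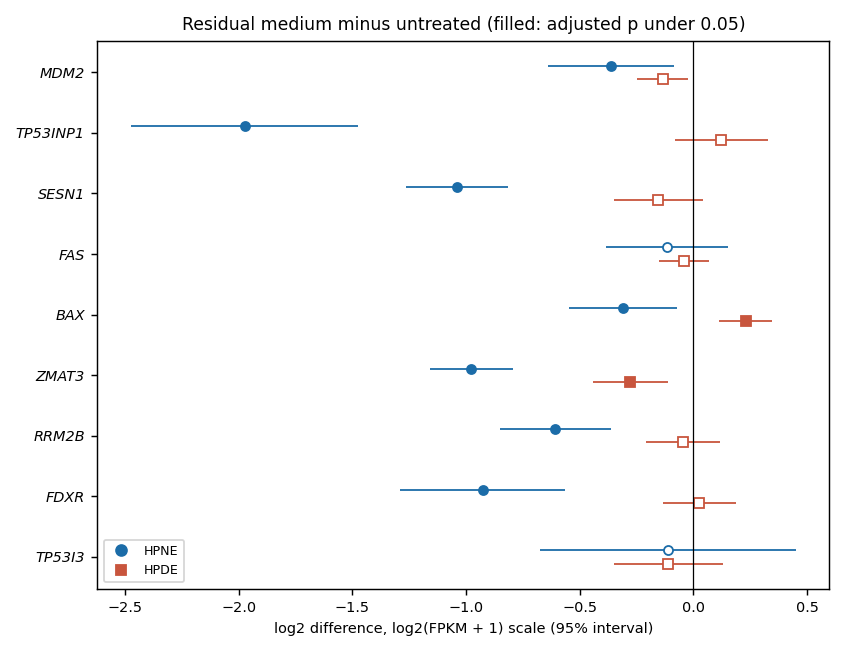
Log2 difference of residual medium minus untreated (horizontal axis) for the 9 genes in HPNE (blue circles) and HPDE (red squares), with 95% intervals; filled symbols passed the limma test at an adjusted p under 0.05. TP53INP1 in HPNE lies at -1.97, and BAX lies on opposite sides of 0 in the 2 lines.

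Cell-cycle RNA also differed between HPNE groups, though not in all comparisons in which the 9 genes did. The 10 cell-cycle genes (MKI67 and CDK1 among them) summed to 45.4, 46.3 and 106 FPKM in untreated HPNE and to 338, 344 and 85.4 FPKM in residual medium, so that residual-medium replicate 3 lay below untreated replicate 3. After PANC-1 EV the sum was 62.8, 83.0 and 76.6 FPKM, and after PPCL-68 EV 32.3, 60.6 and 55.9 FPKM. All 10 genes passed the test as higher in residual medium than in untreated HPNE. Against untreated HPNE, 0 of the 10 passed it after PANC-1 EV and 0 after PPCL-68 EV. In HPDE the sum was 483 to 508 FPKM untreated, 464 to 481 in residual medium, 301 to 311 after PANC-1 EV and 229 to 253 after PPCL-68 EV. Marker sums moved too: from untreated to residual medium the mesenchyme sum went from 78.8 to 88.8 FPKM to 103 to 121 FPKM in HPDE. In HPNE it was 11855 to 12541 FPKM untreated and 9143 to 12359 FPKM in residual medium. The part of the cell-cycle and marker differences in the values of the 9 genes was not tested. With all 4 HPNE libraries that lie apart left out, the same number of genes, 7, fell in residual medium.

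Other p53 pathway genes were compared between residual and fresh medium in the same way. Their counts stand beside 43.9% of all genes called in HPNE and 20.0% in HPDE. In HPNE, the regulators CDKN2A (-0.96), the gene of the MDM2 inhibitor ARF, and PPM1D (-0.83), a phosphatase that dampens p53 signalling, fell. MDM4 fell by 0.40 on the log2 scale, and USP7 and CHEK2 passed the test as higher under size factors only. Of the arrest targets 4 of 6 fell, PLK2 (-1.46) and BTG2 (-1.202) most, and PLK3 (0.31) rose. Of the death targets 5 of 10 fell, BBC3 (-1.71) and EDA2R (-0.99) most, and PMAIP1 (0.98) and APAF1 (0.55) rose. Of the repair, metabolism and other targets 6 of 10 fell, GDF15 (-1.65) and CMBL (-1.13) most, and DRAM1 (0.47) rose. CDKN1A fell by 0.37 on the log2 scale, and its call, like those of MDM4 and SESN2, was lost under size factors (limma adjusted p = 0.087, 0.0515 and 0.0826).

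In HPDE residual medium, the regulators ATM (-0.43) and MDM4 (-0.28) fell. Of the arrest targets 4 of 7 rose, CDKN1A (0.52) and GADD45A (0.47) most, and none fell. Of the death targets 3 of 9 rose, PMAIP1 (0.92) and BBC3 (0.56) most, and none fell. Of the other targets 2 of 10 fell, XPC (-0.31) and DDB2 (-0.21, not called under size factors), and none rose. CDKN1A differed between the lines in this effect (0.89 ± 0.11, limma adjusted p = 5.38e-06), as did BBC3 (2.28 ± 0.34, limma adjusted p = 6.37e-05).

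**Figure D4:**
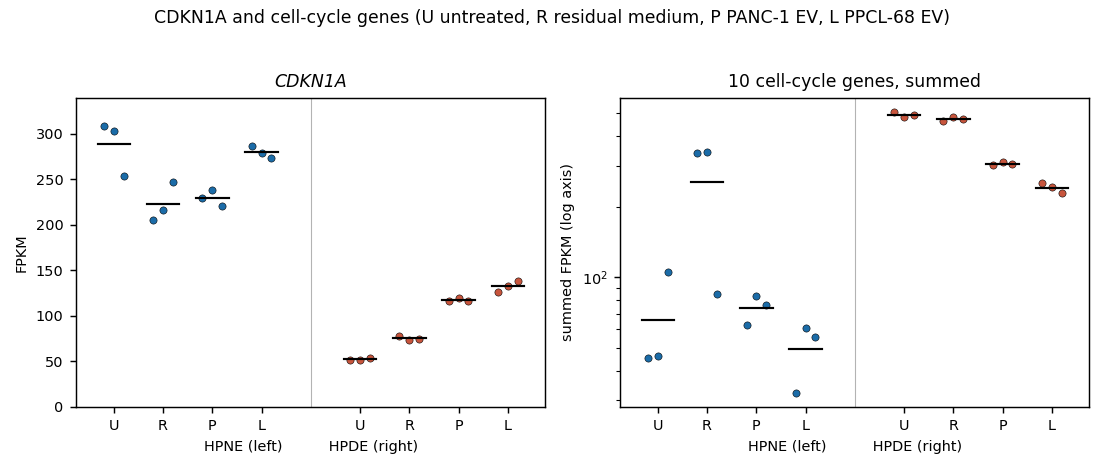
CDKN1A in FPKM (vertical axis, from 0) and the summed FPKM of 10 cell-cycle genes (log axis) in each library, with HPNE in blue on the left and HPDE in red on the right; bars are means of 3 libraries. In HPNE residual medium, replicates 1 and 2 have cell-cycle sums of 338 and 344 FPKM and replicate 3 has 85.4.

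Vesicles were compared with residual medium, the control that shares the isolation step. In HPDE, MDM2 rose after both kinds of vesicle while BAX and FDXR fell after both. PANC-1 EV changed 4 of the 9 genes, 1 up and 3 down, beside 63.3% of all genes tested. PPCL-68 EV changed 6, 3 up and 3 down, beside 67.7% of all genes tested. The median log2 difference of the 9 genes was -0.07 and -0.01, against -0.04 and -0.03 for all genes. Neither count therefore sets the 9 genes apart from all genes. The comparisons of both vesicles with residual medium share the residual-medium libraries. The 5 duct epithelium markers summed to 2145 to 2337 FPKM in HPDE residual medium, 954 to 1117 FPKM after PANC-1 EV and 824 to 853 FPKM after PPCL-68 EV, and the 5 mesenchyme markers to 103 to 121, 94.1 to 105 and 132 to 152 FPKM. Over the 12 HPDE libraries EPCAM ranged only from 148 to 192 FPKM and CDH1 from 44.9 to 56.6 FPKM. The keratins varied more: KRT19 from 317 to 1140, KRT8 from 158 to 674 and KRT18 from 119 to 299 FPKM. The duct sum therefore does not stand for each of its markers. The part of the marker differences in the results for the 9 genes was not tested.

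MDM2 in HPDE had 11.0, 10.8 and 11.0 FPKM in residual medium, 17.1, 15.4 and 15.9 FPKM after PANC-1 EV and 15.1, 14.1 and 15.9 FPKM after PPCL-68 EV. Both vesicle groups lay above residual and untreated libraries (0.52 ± 0.05 and 0.42 ± 0.05 against residual medium, limma adjusted p = 1.11e-06 and 5.85e-06). FDXR had 7.44, 7.03 and 6.48 FPKM in residual medium, 3.96, 4.30 and 4.32 FPKM after PANC-1 EV and 3.03, 3.38 and 3.59 FPKM after PPCL-68 EV. It fell most among the 9 genes (-0.62 ± 0.08 and -0.88 ± 0.08, limma adjusted p = 6.17e-06 and 1.18e-07), and the 3 groups did not overlap. BAX had 74.3, 66.1 and 67.5 FPKM in residual medium, 49.6, 53.2 and 53.9 FPKM after PANC-1 EV and 51.4, 57.1 and 52.5 FPKM after PPCL-68 EV. It fell with both (-0.40 ± 0.05 and -0.36 ± 0.05, limma adjusted p = 1.70e-05 and 3.33e-05), to below the untreated libraries as well.

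TP53INP1, ZMAT3, RRM2B and FAS differed in HPDE by the source of the vesicles. TP53INP1 had 1.08, 1.2003 and 1.35 FPKM in residual medium, 1.13, 1.00 and 1.28 FPKM after PANC-1 EV and 1.84, 2.15 and 2.15 FPKM after PPCL-68 EV. It rose with PPCL-68 EV (0.47 ± 0.10, limma adjusted p = 0.000569) and did not pass the test with PANC-1 EV (-0.05, 95% interval -0.25 to 0.16). ZMAT3 had 1.06, 0.909 and 0.947 FPKM after PANC-1 EV, below every other HPDE library, and 1.64, 1.76 and 1.85 FPKM after PPCL-68 EV. It fell with PANC-1 EV (-0.39 ± 0.08, limma adjusted p = 0.000497) and overlapped residual medium with PPCL-68 EV. RRM2B rose with PPCL-68 EV, to 7.02, 7.90 and 7.35 FPKM from 5.01, 6.41 and 5.67 FPKM (0.34 ± 0.08, limma adjusted p = 0.00126). FAS fell with PPCL-68 EV, to 12.7, 12.5 and 12.9 FPKM from 14.4, 15.8 and 13.9 FPKM (-0.20 ± 0.05, limma adjusted p = 0.0035), while its PANC-1 EV libraries overlapped residual medium (0.12, limma adjusted p = 0.0572).

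The 2 vesicle groups were also tested against each other in HPDE. PANC-1 EV gave higher FAS (0.31 ± 0.05, limma adjusted p = 0.000169) and FDXR (0.26 ± 0.08, limma adjusted p = 0.0101) than PPCL-68 EV. It gave lower TP53INP1 (-0.51 ± 0.10), ZMAT3 (-0.48 ± 0.08) and RRM2B (-0.20 ± 0.08), with limma adjusted p of 0.000509, 0.000142 and 0.041. These were 5 of the 9 genes, beside 50.1% of all genes tested. The RRM2B call was lost without any 1 of 7 libraries (limma adjusted p up to 0.161). MDM2 (0.09), SESN1 (0.08), BAX (-0.04) and TP53I3 (-0.14) did not pass it. Against residual medium in HPDE, SESN1 (-0.07 and -0.15, PANC-1 EV first) and TP53I3 (-0.15 and -0.01) did not pass the test, nor did RRM2B with PANC-1 EV (0.14) or ZMAT3 with PPCL-68 EV (0.09).

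In HPNE the same vesicles changed 1 of the 9 genes each. PANC-1 EV raised ZMAT3, beside 24.2% of all genes tested, and PPCL-68 EV raised RRM2B, beside 39.9%. ZMAT3 had 12.2, 12.2 and 14.4 FPKM in residual medium and 15.9, 16.3 and 14.7 FPKM after PANC-1 EV, separate by a narrow margin (0.26 ± 0.08, limma adjusted p = 0.0421). RRM2B had 10.47, 10.4 and 12.4 FPKM in residual medium and 17.9, 14.1 and 14.6 FPKM after PPCL-68 EV (0.45 ± 0.11, limma adjusted p = 0.00857). At an unadjusted p under 0.05 the counts were 4 and 6 of the 9 genes. The share of all genes at that looser threshold was not computed, so these counts do not set the 9 genes apart. Differences that did not pass were, for PANC-1 EV, 0.14 for MDM2, 0.01 for FAS, 0.06 for BAX, 0.32 for RRM2B, 0.15 for FDXR and -0.09 for TP53I3. For PPCL-68 EV they were 0.31 for MDM2, 0.41 for TP53INP1, -0.27 for FAS, 0.24 for BAX, 0.18 for ZMAT3, -0.39 for FDXR and 0.24 for TP53I3. The median log2 difference after PANC-1 EV was 0.15 for the 9 genes against 0.02 for all genes. After PPCL-68 EV it was 0.24 against 0.0026.

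These HPNE counts varied with single libraries. The ZMAT3 call with PANC-1 EV was lost when only the 6 libraries compared were fitted, under size factors and without any 1 of 9 libraries (limma adjusted p up to 0.150). Without residual-medium replicate 3 the counts became 4 with each kind of vesicle. For PPCL-68 EV the count was 2 without PANC-1 EV replicate 1 and 3 without PPCL-68 EV replicate 1, when FDXR (-0.53) and TP53I3 (0.58) joined. With all 4 libraries that lie apart left out they became 4 and 7. TP53INP1 after PANC-1 EV, at 8.28, 5.79 and 4.34 FPKM, overlapped residual medium at 3.02, 3.24 and 5.30 FPKM (0.55, limma adjusted p = 0.0976). Without the libraries that lie apart it passed the test with both vesicles (0.54 and 0.53, limma adjusted p = 0.00236 and 0.00223). Those libraries were picked by their distance in these same values, so leaving them out narrows the spread by construction. A gain of calls in that fit was thus partly built in.

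**Figure D5:**
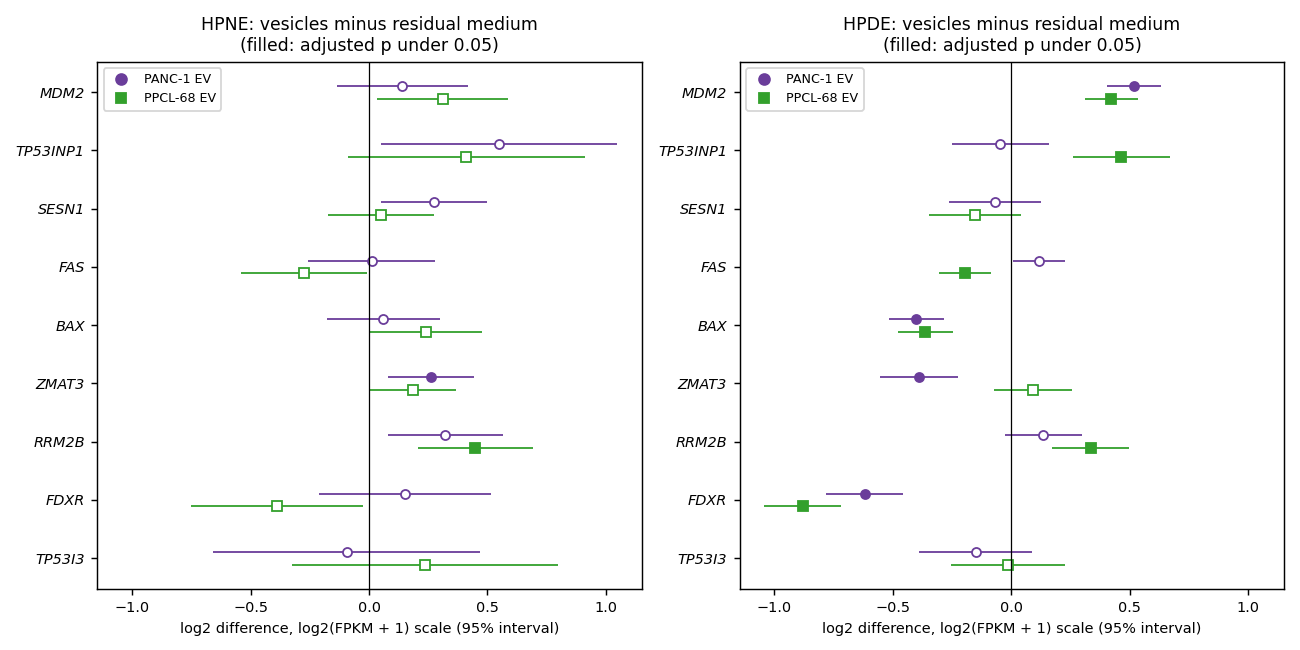
Log2 difference of vesicle-treated minus residual-medium cells (horizontal axis) for the 9 genes in HPNE (left) and HPDE (right), with 95% intervals; purple circles are PANC-1 EV, green squares PPCL-68 EV, and filled symbols passed the limma test at an adjusted p under 0.05. Intervals are wider in HPNE; in HPDE, MDM2 lies above 0 and BAX and FDXR lie below 0 with both vesicles.

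The difference between the lines in the PANC-1 EV effect passed the test for 3 of the 9 genes, beside 21.2% of all genes tested. HPDE minus HPNE was -0.46 ± 0.12 for BAX, -0.65 ± 0.10 for ZMAT3 and -0.77 ± 0.19 for FDXR (limma adjusted p = 0.0105, 0.000108 and 0.00653). ZMAT3 fell in HPDE, while its rise in HPNE (0.26) was a call lost without any 1 of 9 libraries. In the PPCL-68 EV effect BAX alone passed the test, by -0.60 ± 0.12 (limma adjusted p = 0.00106), 1 of the 9 genes beside 25.7% of all genes tested. For MDM2, which passed the test in HPDE and not in HPNE, the difference between the lines did not pass it with PANC-1 EV (0.38, 95% interval 0.09 to 0.67, limma adjusted p = 0.0568). Nor did it for PPCL-68 EV (0.11, 95% interval -0.18 to 0.40). For PANC-1 EV it passed under size factors (0.43, limma adjusted p = 0.0186) and with the replicate block (limma adjusted p = 0.0403). Other differences that did not pass were, for PANC-1 EV, -0.60 for TP53INP1, -0.35 for SESN1, 0.11 for FAS, -0.19 for RRM2B and -0.06 for TP53I3. For PPCL-68 EV they were 0.05 for TP53INP1, -0.20 for SESN1, 0.08 for FAS, -0.09 for ZMAT3, -0.11 for RRM2B, -0.49 for FDXR and -0.25 for TP53I3. Without residual-medium replicate 3 of HPNE the number of genes that differed with PANC-1 EV was 6, MDM2 among them (limma adjusted p = 0.0409). MDM2 also passed without PANC-1 EV replicate 1 of HPNE (0.54, limma adjusted p = 0.000563). For PPCL-68 EV, FDXR joined BAX without HPNE residual-medium replicate 3 or PPCL-68 EV replicate 2 (limma adjusted p = 0.0496 and 0.0361).

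Against untreated cells, HPNE with either kind of vesicle had lower RNA of several of the 9 genes. After PANC-1 EV 4 were lower and none higher, beside 21.1% of all genes tested: TP53INP1 (-1.43 ± 0.23), FDXR (-0.78 ± 0.17), SESN1 (-0.76 ± 0.10) and ZMAT3 (-0.72 ± 0.08). After PPCL-68 EV 5 were lower and none higher, beside 42.5%: those 4 (-1.56, -1.32, -0.99 and -0.79) and FAS (-0.39). SESN1 had 4.22, 4.69 and 4.09 FPKM after PANC-1 EV and 3.83, 3.53 and 3.32 FPKM after PPCL-68 EV, below all 3 untreated libraries. FAS had 15.5, 14.6 and 14.5 FPKM after PPCL-68 EV, below its untreated range of 18.4 to 21.4 FPKM, but its call was lost without any 1 of 4 libraries. The differences that did not pass, PANC-1 EV first, were -0.22 and -0.05 for MDM2, -0.25 and -0.07 for BAX, -0.28 and -0.16 for RRM2B and -0.21 and 0.13 for TP53I3, and -0.11 for FAS after PANC-1 EV. Without the 4 libraries that lie apart, a choice that narrows the spread by construction, the counts were 7 and 8 genes. The 3 comparisons with untreated cells share the untreated libraries. They are also not independent of the comparisons with residual medium.

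Between the vesicle sources in HPNE, 0 of the 9 genes passed the test by limma and 0 by limma voom on recovered reads, beside 5.47% of all genes tested. These tests did not take replicate numbers as pairs. At an unadjusted p under 0.05 there were 3, SESN1 (0.23), FAS (0.29) and FDXR (0.54, 95% interval 0.17 to 0.90), and the share of all genes at that threshold was not computed. The others were MDM2 (-0.17), TP53INP1 (0.14), BAX (-0.18), ZMAT3 (0.08), RRM2B (-0.13) and TP53I3 (-0.33). FDXR passed the test without PPCL-68 EV replicate 1 (0.68, limma adjusted p = 0.0345). FAS, FDXR, MDM2 and TP53I3 passed it without the 4 libraries that lie apart (0.28, 0.56, -0.29 and -0.49), a choice that narrows the spread by construction.

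In HPDE, 5 of the 9 genes differed between PANC-1 EV and untreated cells, 1 higher and 4 lower, beside 60.6% of all genes tested. After PPCL-68 EV 8 differed, 3 higher and 5 lower, beside 66.3%. MDM2 was higher with both (0.38 ± 0.05 and 0.29 ± 0.05) and FDXR lower with both (-0.59 ± 0.08 and -0.85 ± 0.08). ZMAT3 was lower with both, more so with PANC-1 EV (-0.67 ± 0.08 and -0.19 ± 0.08), and so were BAX (-0.17 and -0.13) and SESN1 (-0.22 and -0.31). With PANC-1 EV the SESN1 call was lost without any 1 of 10 libraries and the BAX call without untreated replicate 3 or PANC-1 EV replicate 1. With PPCL-68 EV the BAX call was lost without any 1 of 5 libraries and the ZMAT3 call without any 1 of 8, with adjusted p of up to 0.145 and 0.154 by limma. TP53INP1 (0.59 ± 0.10) and RRM2B (0.29 ± 0.08) were higher and FAS lower (-0.24 ± 0.05) after PPCL-68 EV. After PANC-1 EV these did not pass the test (0.08, 0.09 and 0.08). TP53I3 had 6.59, 6.17 and 6.41 FPKM in untreated HPDE and 5.21, 4.68 and 5.62 FPKM after PANC-1 EV, which did not overlap (-0.26 ± 0.11, limma adjusted p = 0.0564). It passed by voom on recovered reads (limma adjusted p = 0.0445), with only the groups compared (limma adjusted p = 0.00795) and without any 1 of 4 libraries. After PPCL-68 EV its difference was -0.12.

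The order of the group means summarises each gene. In HPNE untreated cells had the highest mean for 8 of the 9 genes, TP53I3 being the exception, and residual medium had the lowest for 6, namely MDM2, TP53INP1, SESN1, BAX, ZMAT3 and RRM2B. How many of all genes had such an order was not counted. In HPDE no such common order was seen: the highest mean was in PANC-1 EV for MDM2 and FAS, in PPCL-68 EV for TP53INP1 and RRM2B, in residual medium for BAX and FDXR, and in untreated cells for SESN1, ZMAT3 and TP53I3. The highest group mean was 4.65 times the lowest for TP53INP1 in HPNE, 2.90 times for FDXR, 2.35 times for SESN1 and 2.04 times for ZMAT3. In HPDE the widest were ZMAT3 (2.19 times), FDXR (2.09 times) and TP53INP1 (1.98 times). Neighbours in these orders often overlapped, as PANC-1 EV and PPCL-68 EV did for TP53INP1 in HPNE. The HPNE libraries of TP53I3 spread widely after PPCL-68 EV, at 5.59, 11.1 and 13.7 FPKM, with the library that lies apart the lowest.

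Larger changes after vesicles were measured in other p53 pathway genes. SESN2, a sestrin, and GDF15, a stress cytokine, are targets of the stress factor ATF4 as well as of p53, and both rose in all 4 comparisons with residual medium. SESN2 in HPNE had 7.84, 7.73 and 16.5 FPKM in residual medium, 40.6, 50.7 and 53.4 FPKM after PANC-1 EV and 38.5, 50.0 and 51.0 FPKM after PPCL-68 EV (2.15 ± 0.23 and 2.09 ± 0.23). SESN1 differed by 0.28 (limma adjusted p = 0.069) and 0.05 in the same comparisons. In HPDE SESN2 rose by 2.06 ± 0.05 and 2.10 ± 0.05, and GDF15 by 2.65 ± 0.09 and 2.70 ± 0.09, and in HPNE GDF15 rose by 2.46 ± 0.27 and 2.25 ± 0.27. GADD45A, a growth-arrest gene, rose in HPNE by 1.995 with PANC-1 EV, by 2.03 with PPCL-68 EV, and in HPDE by 1.28 and 0.83.

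By list, the arrest targets in HPNE had 3 of 6 higher and none lower with each kind of vesicle, GADD45A most, then PLK2 (0.68) with PANC-1 EV and PLK3 (0.36) with PPCL-68 EV. CDKN1A rose with PPCL-68 EV (0.33, limma adjusted p = 0.0266) and differed by 0.04 with PANC-1 EV, which did not pass the test. The death targets had 4 of 10 higher and 1 lower with each: BBC3 (1.35) and PMAIP1 (1.27) rose most with PANC-1 EV, PMAIP1 (1.64) and TNFRSF10B (1.18) rose most with PPCL-68 EV, and APAF1 fell (-0.97 and -0.79). The repair, metabolism and other targets had 4 of 10 higher with each and 1 or 2 lower, POLH (-0.73 and -0.82) most. Of the regulators, MDM4 (0.44) and PPM1D (0.28) rose and CHEK2 (-0.58) fell with PPCL-68 EV. The cell-cycle genes had 6 and 10 of 10 lower. Against residual medium, 24.2% of all genes tested in HPNE were called for vesicles from PANC-1 and 39.9% for those from PPCL-68.

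In HPDE the arrest targets had 4 of 7 higher and 3 lower with each kind of vesicle: CDKN1A rose from 77.7, 72.7 and 74.6 FPKM to 116, 119 and 116 FPKM with PANC-1 EV and to 126, 133 and 139 FPKM with PPCL-68 EV, and PLK2 fell (-1.06 and -1.26). The death targets had 3 of 9 higher and 3 lower with PANC-1 EV, BBC3 (0.60) and PIDD (-0.52) at the ends, and 1 higher and 4 lower with PPCL-68 EV, TNFRSF10B (0.43) and PIDD (-0.57) at the ends. The repair, metabolism and other targets had 4 of 10 higher with each, and 3 and 4 lower, with CMBL (-0.56 and -1.11) lowest in both. Of the regulators, TP63 rose with PANC-1 EV (0.99), MDM4 rose with both (0.65 and 0.64), and CHEK2 fell with both (-0.34 and -0.81). All 10 cell-cycle genes fell with both. The share of all genes called in HPDE was 63.3% for vesicles from PANC-1 and 67.7% for those from PPCL-68. A difference of any list from all genes was not tested, in either line.

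Likeness to MDM2 was measured as Pearson's r of log2 group means centred within each line, over 8 group means and 10482 genes. The most alike genes were TBL1XR1 (r = 0.983), a gene known by a clone name (0.981), SLC25A36 (0.981), ZNF197 (0.979) and CTIF (0.974). Among the p53 target genes r with MDM2 was 0.78 for RRM2B and 0.50 for TP53INP1. It was 0.21 for SESN1, 0.08 for ZMAT3, -0.03 for TP53I3, -0.10 for FAS, -0.26 for BAX and -0.31 for FDXR. These values are descriptions over few group means that share libraries, and the 9 genes did not share 1 pattern by this measure.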

How the data were processed

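RNA was sequenced from 24 libraries. The authors deposited 1 table per library with FPKM per gene (reads scaled to gene length and library total), per the file headers. The submitters' processing notes name hg19, CASAVA, STAR, HTSeq and DESeq2, with no roles or versions. Since 100% of values were whole multiples of 1 read (tolerance 0.1), reads were recovered, which gave the depth. limma 3.58.1 (R 4.3.3; lmFit, eBayes with a trend, two-sided) was run on log2(FPKM + 1), for genes with mean FPKM of at least 1. The 12 libraries of a line were fitted together, with 8 residual degrees of freedom. All 24 (16 residual degrees of freedom) were fitted for the baseline and line differences. Benjamini-Hochberg adjustment ran over all genes tested, with a threshold of 0.05, in 16 comparisons. The log2(FPKM + 1) scale understates changes of low genes. Groups came from the titles. The scripts were tested on simulated data. Alternatives were a pseudocount of 0.1, no filter, size factors, only the groups compared, a replicate block, voom on recovered reads, and libraries left out. The main tests did not take replicate numbers as pairs. The replicate block gave same-numbered libraries of all groups in a fit a shared shift. Same-numbered libraries of the HPNE vesicle groups deviated together (r 0.292 to 0.565), but no paired test of those groups alone was run. The labels state no pairing. The 9 genes are given in every comparison; of the other lists TP63, CDKN1A, MDM4 and the largest changes were eligible. A listed regulator is not reported here, so regulators are given singly, without counts. The members and lists were chosen with earlier results of these data known. PIDD1 and TIGAR were matched by the older symbols of the tables, PIDD and C12orf5. Figures were drawn with matplotlib 3.10.9. Amplified reads carry no molecular identifiers.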

Additional observations from a re-analysis of the deposited data

Results flagged for a closer look

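The effect of a treatment differed between the lines, by a limma interaction contrast over all genes, for the following genes, given as HPDE minus HPNE on the log2(FPKM + 1) scale. For PANC-1 EV against residual medium the differences were -0.46 for BAX, -0.65 for ZMAT3 and -0.77 for FDXR. For PPCL-68 EV against residual medium it was -0.60 for BAX. For residual medium against untreated cells they were 2.10 for TP53INP1, 0.88 for SESN1, 0.54 for BAX, 0.70 for ZMAT3, 0.56 for RRM2B and 0.95 for FDXR. BAX was flagged in all 3 contrasts, in which the residual-medium libraries of both lines enter each time. All 10 stayed past the threshold without any single library.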

How the results depend on the processing

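For the 144 differences of the 9 genes, the alternatives gave 2628 values, several from each refit. Of these, 2472 kept their side of the threshold, 86 lost a call, 70 gained one and 0 called values reversed. In HPNE, PANC-1 EV against residual medium called 1 gene in the main analysis, 0 with no filter, with size factors, with the replicate block or with only the groups compared, 2 with voom, 4 with the 4 libraries that lie apart left out, and 0 to 4 without single libraries. PPCL-68 EV against residual medium called 1, but 3 with size factors, 2 with the replicate block, 2 with only the groups compared, 7 with the 4 libraries left out and 1 to 4 without single ones. Against untreated cells, the 4 and 5 genes became 7 and 8 with the 4 libraries left out. Between vesicle sources 0 became 4, and 0 to 1 without single libraries. In HPDE, residual medium against untreated called 2, 1 with no filter and 1 to 2 without single libraries; PANC-1 EV against untreated called 5, 3 with size factors and 3 to 5. The line differences for PANC-1 EV (3) and PPCL-68 EV (1) became 7 and 4 with the 4 libraries left out, and 3 to 6 and 1 to 2 without single ones. The 4 libraries were picked by distance in these same values, so leaving them out narrows the spread and favours more calls. Of the 54 HPNE differences of the 9 genes, 19 gained a call in that fit and 0 lost it. Other causes were not tested. The HPNE counts for residual medium against untreated were 5 with no filter and 5 to 7 without single libraries. Between the lines PANC-1 EV called 4 genes under size factors and 4 with the replicate block. Same-numbered libraries of the HPNE vesicle groups deviated together (r 0.292 to 0.565). Over all 6 pairs of groups the mean r was 0.027 in HPNE and -0.041 in HPDE. For no other pair of groups did every r exceed 0.1, and for untreated and residual-medium HPNE r was -0.513 to -0.392. The main tests did not take the numbers as pairs. With the replicate block, 0 of the 9 genes differed between the HPNE vesicle groups, as without it. That block shares its shifts over all 4 groups of the line, so it is not a paired test of the vesicle groups.

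The tests rest on 3 libraries per group, and the 9 genes had at least 165 reads in every library.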
